A study of Mus musculus with 2 samples.

Results

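The capillary endothelial cells of epididymal fat were described among the cells of its stromal vascular fraction, the cells that Liberase digestion frees and that are spun down away from the adipocytes. The donors were Mincle KO and wild-type (WT) male mice on a C57BL/6J background, and 15 weeks of high-fat diet preceded the collection in both genotypes. Clec4e encodes Mincle, a pattern recognition receptor of myeloid cells, and the labels do not give the KO allele. Suspensions were stained with hashtag antibodies and pooled, and 20000 cells of the pool were loaded on a BD Rhapsody microwell system, so that 2 libraries were made, 1 of transcripts and 1 of hashtags. The authors' cell names carry 4 hashtags, A0309, A0310, A0311 and A0312. Which hashtag marked which genotype or mouse is not in the labels, so KO and WT cells were not compared, hashtags were not used as replicates, and no test was run. The values below are levels and ratios in 1 pool, and their intervals are 95% intervals for counting error only.

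A capillary cell had to have at least 3 of the 4 endothelial genes Cdh5, Kdr, Cldn5 and Egfl7 counted and at least 2 of the 4 capillary genes Gpihbp1, Rbp7, Btnl9 and C1qtnf9. It also had to hold under 20 counts per 10000 of Cd68, C1qa and C1qb together, under 10 counts per 10000 of Dcn and Lum together, and fewer than 2 of the 3 mural genes Rgs5, Notch3 and Myh11. The rule was met by 950 of 15374 hashtag-assigned cells, which is 6.18% (exact interval 5.80% to 6.57%). The cells were thus chosen by the counts of these genes in the cells themselves, and their levels are given as a description.

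Capillaries of white fat are lined by a continuous endothelium that passes fatty acids from the blood to adipocytes. GPIHBP1 carries lipoprotein lipase across the endothelial cell to its luminal face, where the enzyme releases fatty acids from triglyceride-rich lipoproteins. CD36 takes up fatty acids at the cell surface, FABP4 binds them in the cytosol, and the nuclear receptor PPARγ drives the genes of both in endothelium and adipocytes. RBP7, which binds retinol, and the butyrophilin-like BTNL9 are markers of fat capillaries, and C1QTNF9 is a secreted adiponectin paralogue. Mural cells, the pericytes and smooth muscle of the vessel wall, lie on the outside of the same vessels.

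The 4 capillary genes of the rule lie on separate chromosomes of GRCm38. Gpihbp1 is at chr15:75596628-75599481 on the plus strand, Rbp7 at chr4:149449687-149454978 on the minus strand, Btnl9 at chr11:49165585-49187159 on the minus strand and C1qtnf9 at chr14:60768134-60780869 on the plus strand. RefSeq promoters of GRCm38.p6, from 250 bases before to 50 bases after a gene's start, matched 3 of the 4 genes. They are shown because these genes chose the cells and had their highest level in them among the classes compared. Capitals mark AGGAAG, a core of the sites bound by ETS factors such as ERG and FLI1, on either strand (CTTCCT where it lies on the other strand). Each sequence is written 5′ to 3′ along its gene.
Rbp7, chr4:149454919-149455218, minus strand: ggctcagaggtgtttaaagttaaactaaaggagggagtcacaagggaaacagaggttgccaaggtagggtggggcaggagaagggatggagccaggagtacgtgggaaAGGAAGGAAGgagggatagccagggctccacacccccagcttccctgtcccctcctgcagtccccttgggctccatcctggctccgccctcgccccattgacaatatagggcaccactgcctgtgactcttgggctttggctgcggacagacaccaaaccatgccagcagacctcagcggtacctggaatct
Btnl9, chr11:49187040-49187339, minus strand: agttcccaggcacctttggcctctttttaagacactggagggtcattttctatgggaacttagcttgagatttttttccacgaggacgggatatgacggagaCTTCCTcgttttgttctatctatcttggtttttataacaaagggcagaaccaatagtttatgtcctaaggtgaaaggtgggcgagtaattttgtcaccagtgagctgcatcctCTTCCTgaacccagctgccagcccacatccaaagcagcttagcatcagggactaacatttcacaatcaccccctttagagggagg
C1qtnf9, chr14:60767884-60768183, plus strand: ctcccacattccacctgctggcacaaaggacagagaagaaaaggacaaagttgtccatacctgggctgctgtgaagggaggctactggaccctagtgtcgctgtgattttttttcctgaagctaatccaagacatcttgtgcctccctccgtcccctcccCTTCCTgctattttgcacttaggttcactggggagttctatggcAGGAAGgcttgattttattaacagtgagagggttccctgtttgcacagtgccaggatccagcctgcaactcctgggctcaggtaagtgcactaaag
Each of these 3 promoters held the motif 2 times, the pair in Rbp7 overlapping. Of all 32851 promoters in the table, 35.4% held it at least once. A match describes the letters and is not a measured site.

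The capillary cells were spread over all 4 hashtags (plot of the share of capillary cells by hashtag). They were 231 of the 3288 cells that carried A0309 (7.03%, 6.18% to 7.95%) and 167 of the 3537 that carried A0310 (4.72%, 4.05% to 5.47%). They were 267 of the 3893 A0311 cells (6.86%, 6.08% to 7.70%) and 285 of the 4656 A0312 cells (6.12%, 5.45% to 6.85%). The share was lowest with A0310, and no difference between hashtags was tested, since the intervals cover counting error and not the spread between mice. A0310 had 46.3% macrophage cells and 27.8% fibroblast cells, against 49.5% and 22.5% in the pool. With A0309, where the capillary share was highest, these were 40.1% and 26.8%. Any such share is relative to the other cells recovered, and why it was lowest with A0310 was not tested.

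**Figure D1:**
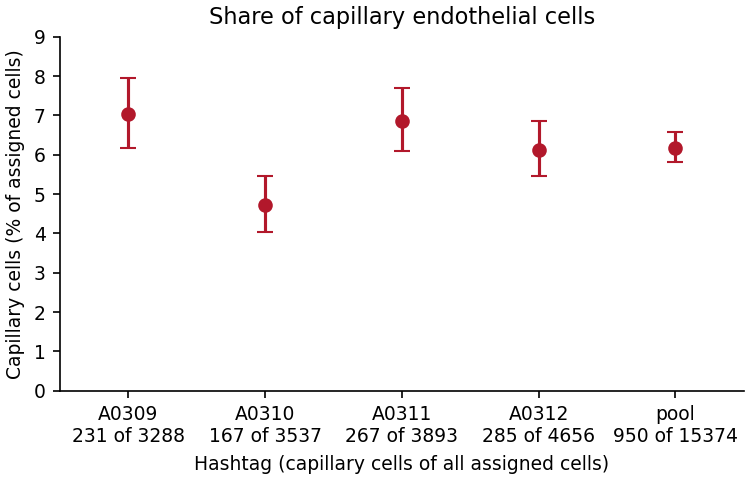
Capillary endothelial cells as a percentage of the cells assigned to each hashtag and to the pool, with exact 95% binomial intervals as bars. A0310 stands lowest at 4.72%, and the other 3 hashtags lie between 6.12% and 7.03%.

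A capillary cell held a median of 13397.5 counts (range 6972 to 115092) in 2845 genes, against a median of 34274 counts over all assigned cells. The 950 cells held 15928825 counts in all. All 4 capillary genes and all 4 endothelial genes were counted in 508 cells (53.5%), and 142 cells sat just inside the rule with 2 capillary genes. Just outside it, 39 cells had 1 capillary gene with 3 or 4 endothelial genes, and 21 cells had 2 endothelial genes with at least 2 capillary genes. The limits on macrophage, fibroblast and mural genes left out 529 of the 1479 cells that met both gene counts, with a median of 35395 counts. Of these, 274 failed the mural limit, 210 the macrophage limit and 83 the fibroblast limit. The median depth of the cells left out was above that of the cells kept, and whether they were doublets was not tested.

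Cells that share the endothelial genes but hold fewer than 2 capillary genes, called other endothelial cells here, numbered 52. They had a median of 14000.5 counts, and no hashtag held 20 of them. Mural cells, with at least 2 of Rgs5, Notch3 and Myh11 and fewer than 2 endothelial genes, numbered 210 (median 13787.5 counts), with 44 to 63 in each hashtag. Fibroblast cells (3463) and macrophage cells (7605) served as further background. Counts were summed over the cells of a class and scaled to 1000000 (counts per 1000000, CPM). A gene was called higher or lower when the log2 ratio of CPM plus 1 was at least 1 in size with 1 sign, in the pool and also in each hashtag that held 20 or more cells of each class. For other endothelial cells that left the pool alone. A stricter selection, added after these data were seen, held both endothelial classes to under 5 counts per 10000 of Cd68, C1qa and C1qb together and left out cells with at least 2 lymphatic genes, which kept 872 capillary and 30 other endothelial cells.

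Against other endothelial cells, 1714 of 12685 genes at 5 CPM or more (13.5%) were called higher in capillary cells and 1673 (13.2%) lower, with a median log2 ratio of 0.02. Under the stricter selection the shares were 18.8% and 14% of 12453 genes. Against mural cells, 833 of 12907 genes (6.45%) were called higher in every hashtag and 999 (7.74%) lower, with a median of -0.06. The rule itself chose the cells of both comparisons, so these shares and the counts of list members beside them are descriptions. The small number of other endothelial cells matters for single genes: Ccl7, a chemokine, had 7.28 CPM in capillary cells and 189 CPM in other endothelial cells, where 97.7% of its counts came from 1 cell, and its log2 ratio was 0.19 once the deepest 5% of cells were left out.

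The label was checked against endothelial markers that the rule did not use, since the rule fixed the levels of Cdh5, Kdr, Cldn5 and Egfl7. Pecam1 (CD31) had 1742, 1411, 1723 and 1601 CPM in capillary cells with A0309, A0310, A0311 and A0312, against 1099 CPM in other endothelial cells and 15.1 CPM in mural cells. Robo4, a guidance receptor of endothelium, had 346 CPM in capillary cells and no count in mural cells, and Ptprb (VE-PTP) had 1276 CPM against 11.2 CPM in mural cells. Without the 4 endothelial genes of the rule, the list of endothelial identity and junctions had 14 genes, of which 13 reached 5 CPM against mural cells and 13 were higher (6.45% of all genes tested were), with a median log2 ratio of 5.95. Mural cells were themselves chosen to hold fewer than 2 of the rule's endothelial genes. Against other endothelial cells 3 of these 13 were higher and 0 lower (13.5% and 13.2% of all genes), with a median of 0.521. With the stricter selection 0 of 13 were called (18.8% of all genes were higher and 14% lower). Pecam1 and Tek, the receptor of angiopoietins (219.9 against 218 CPM), were not called in that comparison.

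RNA of other cell types was read from markers, some of which the rule limits: Cd68, C1qa, C1qb, Dcn, Lum, Rgs5, Notch3 and Myh11 were low by selection, and their levels show nothing further. Low values of Cd68, C1qa, Dcn, Lum and Rgs5 had also been set to 0 before deposit. The lowest values left were 7, 6, 68, 8 and 7, so the limits could not see lower counts of these genes. The 5 other macrophage markers summed to 620.4 CPM in capillary cells (426 to 908 CPM over hashtags, highest in A0310), 2832 CPM in other endothelial cells and 11990.4 CPM in macrophage cells. All 5 were lower in capillary than in other endothelial cells, with the stricter selection as well. The 3 other fibroblast markers summed to 106 CPM in capillary cells and 17343 CPM in fibroblast cells, and the 5 other mural markers to 106 CPM in capillary cells and 6344 CPM in mural cells. How far the limits on some markers also lowered the others was not tested. With the limited genes included, the 8 macrophage markers summed to 805 CPM in capillary cells (577 to 1184 CPM over hashtags), 3481 CPM in other endothelial cells, 1427 CPM in mural cells and 17510 CPM in macrophage cells. Markers of adipocytes, T and NK cells, B cells, mesothelium and Schwann cells, on which the rule sets no limit, summed to between 1.51 and 43.7 CPM in capillary cells, and those of platelets to 52.2 CPM. Low values of Lyz2, Tyrobp, Col3a1, Acta2 and Car3, which are in these sums, had been set to 0 as well. The lowest values left were 18, 9, 37, 6 and 56, so sums of markers that hold such genes are lower limits, here and below. The part of this RNA in the results below was not tested, except where a value without it is given.

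Of the 13 markers of fat capillaries, 4 are the rule's own genes and are left out of the counts here (plot of levels by cell class). Car4, the membrane-bound carbonic anhydrase IV, had 537, 688, 650.1 and 627 CPM in the 4 hashtags in the order above, against 24.6 CPM in other endothelial cells and 34.2 CPM in mural cells. Each hashtag was above both. Rgcc, a regulator of the cell cycle, had 584 against 74.7 CPM in other endothelial cells, and Cd300lg (nepmucin) had 1178 against 203 CPM. Tcf15 and Meox2, partner transcription factors of fatty acid transport in heart and muscle endothelium, had 221 and 263 CPM, against 64.1 and 79.0 CPM in other endothelial cells. Of the 9 members outside the rule, 8 were higher than in other endothelial cells and 0 lower (13.5% and 13.2% of all genes were; median log2 ratio 1.92), and 6 were higher and 0 lower than in mural cells (6.45% and 7.74% of all genes; median 2.04). The stricter selection left 7 higher and 1 lower than in other endothelial cells (18.8% and 14% of all genes), and the log2 ratio of Tcf15 was 0.92. After thinning to 10000 counts the ratios were 0.60 for Tcf15 and 0.75 for Meox2. Aqp1, the water channel, was the exception to the first, at 2259 CPM in capillary cells (2565, 1649, 2657 and 2024 CPM by hashtag) and 3165 CPM in other endothelial cells. Sparcl1, Timp4 and Cyp4b1 were not called against mural cells: Sparcl1, a matricellular protein, had 1850.0 CPM in capillary and 2444 CPM in mural cells.

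**Figure D2:**
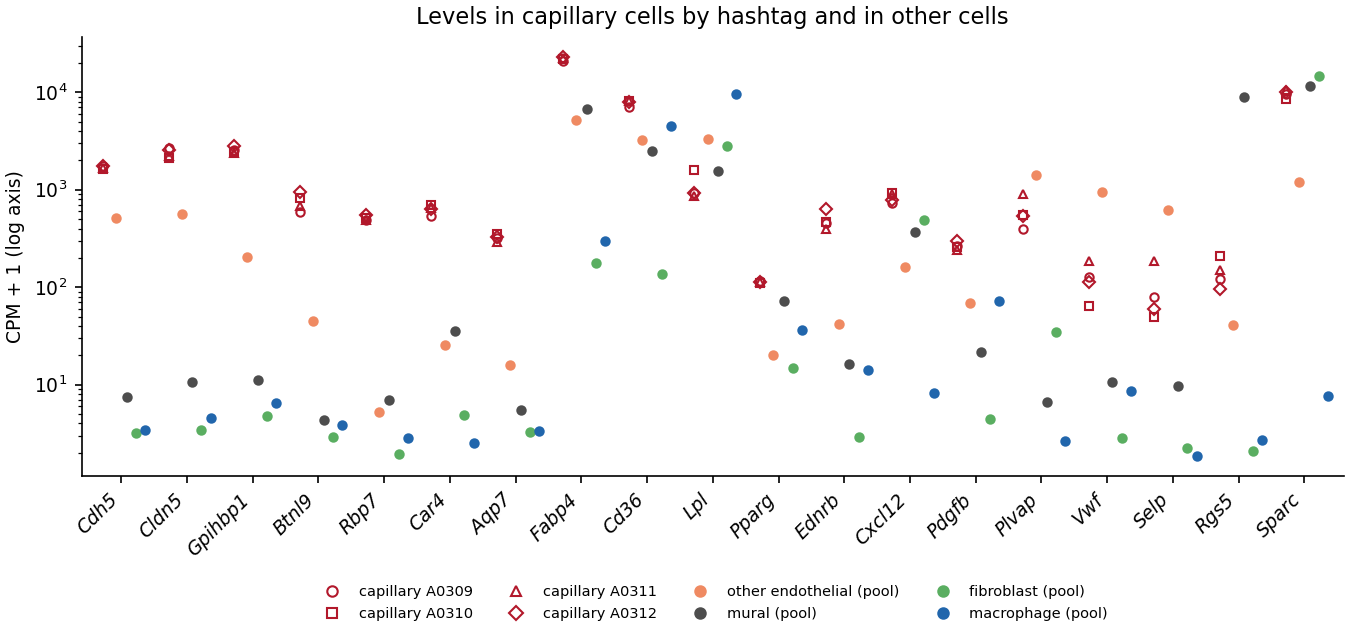
CPM plus 1 on a log axis for 19 genes. Open red symbols are capillary cells of the 4 hashtags, and filled circles are pooled other endothelial, mural, fibroblast and macrophage cells. Gpihbp1, Btnl9, Rbp7, Car4 and Aqp7 stand high only in the red symbols among the classes drawn, while Vwf and Selp stand higher in other endothelial cells.

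Many genes of fatty acid uptake were higher than in other endothelial cells. Fabp4 had 21093, 22036, 22333 and 23156 CPM in capillary cells of the 4 hashtags, against 5222 CPM in other endothelial, 6738 CPM in mural, 174 CPM in fibroblast and 294 CPM in macrophage cells. Cd36 had 7018, 8143, 8161 and 7870.3 CPM in the 4 hashtags, against 3244 CPM in other endothelial, 2494 CPM in mural and 4559 CPM in macrophage cells. Both genes were counted in about every capillary cell (98.9% and 99.1%) and in all 4 hashtags exceeded both vessel classes. Gpihbp1, whose level the rule fixed, had 2527, 2421, 2377 and 2814 CPM in the 4 hashtags, against 202 CPM in other endothelial and 10.1 CPM in mural cells. Aqp7, the channel for glycerol, had 317 CPM against 14.9 CPM in other endothelial and 4.49 CPM in mural cells. Pparg had 113 CPM, with hashtags from 109 to 115 CPM, against 19.2 CPM in other endothelial cells. It was not called against mural cells (71.5 CPM). Scarb1, a receptor for HDL, had 769 CPM, Fabp5 1479.6 CPM and Angptl4, an inhibitor of lipoprotein lipase, 527 CPM, against 311.8, 451 and 137 CPM in other endothelial cells. Without Gpihbp1, 11 of 18 members tested against other endothelial cells were higher and 5 lower (median 1.28, against 13.5% and 13.2% of all genes). Of 19 tested against mural cells 8 were higher and 2 lower (median 0.676, against 6.45% and 7.74% of all genes). Under the stricter selection 9 of 18 were higher and 2 lower than in other endothelial cells (18.8% and 14% of all genes). The ratio of Scarb1 was 0.85 there and 0.86 without A0309, which is under the size needed for a call.

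The lower members of that list included Lpl, the lipase itself, with 1023 CPM in capillary, 3332 CPM in other endothelial, 1559.9 CPM in mural, 2808 CPM in fibroblast and 9703 CPM in macrophage cells. Plin2, which coats lipid droplets, had 479 CPM in capillary, 1094 CPM in other endothelial and 2130.3 CPM in macrophage cells. Both are abundant in macrophage cells, and macrophage markers were 805 CPM in capillary and 3481 CPM in other endothelial cells. With the stricter selection the log2 ratio was 0.81 for Lpl and 0.52 for Plin2, against -1.70 and -1.19 before. Both ratios were also above 0 after thinning every cell to 10000 counts (1.13 and 0.92), and without A0309 they were -0.45 and 0.15. With the stricter selection the ratio was 1.46 for Fabp4 and 1.27 for Cd36. The lower members also included the fatty acid transporters Slc27a1 and Slc27a4, at 36.6 and 14.6 CPM in capillary cells and 85.4 and 31.0 CPM in other endothelial cells, and the ratios of both changed sign after thinning (0.16 and 0.97). With the stricter selection these 2 ratios were -0.11 and 0.96, that of Slc27a1 was -0.98 without A0312, and that of Slc27a4 was -0.50 without A0309. Fabp4, Cd36, Lpl, Aqp1, and Sparc, Col4a1 and Mgp below, are among 68 genes whose low values had been set to 0 before deposit. Their share of positive cells and their summed counts are therefore lower limits. How far this changed their ratios between classes was not tested.

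Coat genes of caveolae, the membrane pits of capillary endothelium, were also among the higher ones. Cav1 had 2246, 1797, 1978 and 2192 CPM in the 4 hashtags, against 538 CPM in other endothelial and 316 CPM in mural cells. Cavin2 had 2141 CPM against 964 and 80.5 CPM. Of 9 members, 5 were higher and 2 lower than in other endothelial cells (median 1.15, against 13.5% and 13.2% of all genes). Against mural cells 5 were higher and 0 lower (median 1.19, against 6.45% and 7.74% of all genes). The stricter selection gave 1 higher and 2 lower than in other endothelial cells (18.8% and 14% of all genes). Cavin2 lost its call there (0.71), as it did without A0309 (0.83) and after thinning (0.51). Plvap, which forms the diaphragms of caveolae and fenestrae, had 394, 551, 909 and 542 CPM in capillary cells of the 4 hashtags and 1404 CPM in other endothelial cells. It differed between hashtags by more than Cav1 did, with A0311 highest, and was counted in 57.9% of capillary cells. Plvap was lower than in other endothelial cells, and without A0310 its ratio was -0.94.

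Among basement membrane genes, Sparc, a matricellular protein that binds collagen, had 9597, 8434, 10454 and 10102 CPM in the 4 hashtags, against 1199 CPM in other endothelial, 11667 CPM in mural and 14625 CPM in fibroblast cells. Col4a1, the α1 chain of collagen IV, had 2147 CPM in capillary, 657 CPM in other endothelial, 3078 CPM in mural and 2292 CPM in fibroblast cells. Neither gene was called against mural cells. Against other endothelial cells 7 of 16 were higher and 2 lower (median 0.90, against 13.5% and 13.2% of all genes). With the stricter selection 2 were higher and 2 lower (18.8% and 14% of all genes), with a ratio of 0.75 for Col4a1. Against mural cells, where 6.45% and 7.74% of all genes were called higher and lower, 0 of 16 were higher and 5 lower (median -0.30), the lower ones being Col18a1, Lamb1, Nid1, Timp3 and Mgp. Mgp, the matrix inhibitor of calcification, had 17.8 CPM in capillary, 415 CPM in other endothelial and 470.0 CPM in mural cells, with 64.8% of the other endothelial counts in 1 cell. The lowest value of Mgp left in a cell was 25.

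**Figure D3:**
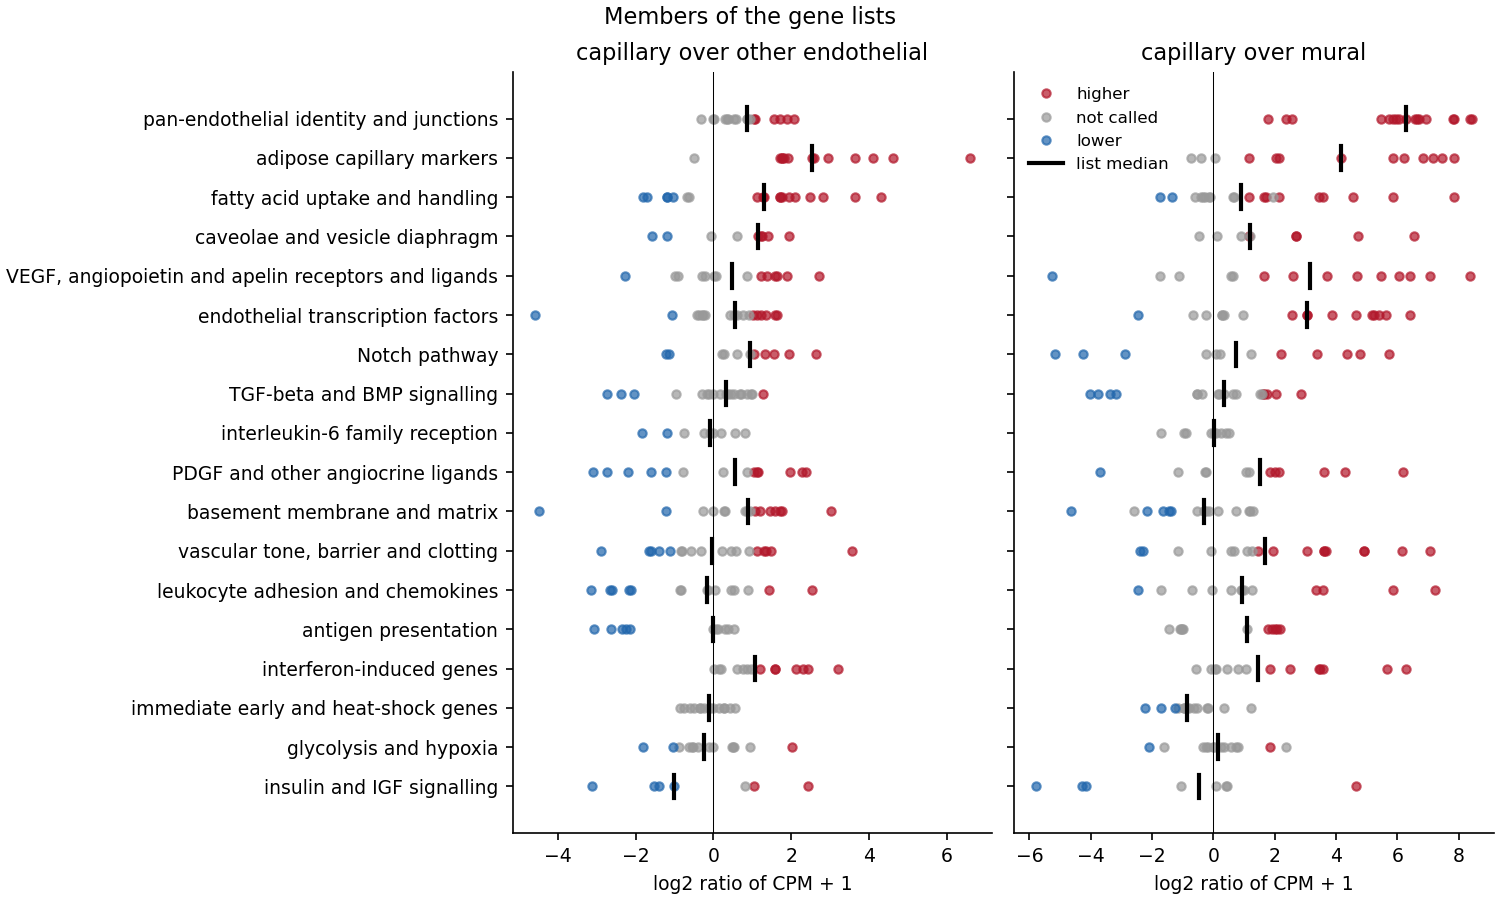
Log2 ratio of CPM plus 1 for the members of 18 gene lists at 5 CPM or more in either class, capillary over other endothelial cells (left) and over mural cells (right). Points are genes, coloured by call, and black bars are list medians. The identity list, with its 4 genes of the rule, sits at a median of 6.30 over mural cells, and the basement membrane list at -0.30.

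Of the VEGF receptors, Nrp1 and Flt1 were called higher than in other endothelial cells, and Kdr is a gene of the rule, given as a description. VEGF-A acts on endothelium through KDR, while FLT1 binds it as a decoy and NRP1 is a co-receptor. Kdr had 1204, 1197, 1113 and 1162 CPM in the 4 hashtags, against 310.7 CPM in other endothelial and 2.52 CPM in mural cells. Flt1 had 1139 CPM against 490.1 and 43.2 CPM, and Nrp1 had 635 CPM against 210.3 and 410.0 CPM. The ligand Vegfa was lower, at 4.33 CPM in capillary cells, 24.6 CPM in other endothelial cells, 20.9 CPM in fibroblast and 16.4 CPM in macrophage cells. Apln, the apelin ligand, had 199, 53.2, 129 and 135 CPM in the 4 hashtags, a spread in which A0310 was lowest, and was counted in 13.8% of cells, while its receptor Aplnr had 276 CPM and was counted in 63.4%. Apln had 19.2 CPM in other endothelial cells and no count in mural cells. Flt1 lost its call with the stricter selection (0.44), without A0309 (0.84) and after thinning (0.78). Of 13 members without Kdr, 5 were higher and 1 lower than in other endothelial cells (median 0.0771, against 13.5% and 13.2% of all genes). With the stricter selection 4 were higher and 2 lower (18.8% and 14% of all genes). Against mural cells 8 were higher and 1 lower (median 2.59, against 6.45% and 7.74% of all genes). Angpt1, the Tek ligand made by pericytes, was the one lower than in mural cells, at 0.502 CPM in capillary and 56.4 CPM in mural cells.

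Among endothelial transcription factors, Sox17 had 180.2 CPM in capillary cells (164 to 199 CPM over hashtags), 59.8 CPM in other endothelial and 1.12 CPM in mural cells. The ETS factors Fli1, Ets1 and Ets2 had 310.6, 419.6 and 536 CPM in capillary cells, against 132, 133 and 209 CPM in other endothelial cells, and were called higher there, while Erg (243 against 180.4 CPM) was not. Epas1, which encodes HIF-2α, had 830.1 CPM in capillary, 439.9 CPM in other endothelial and 988 CPM in mural cells and was called in neither comparison. The venous factor Nr2f2 (57.1 against 121 CPM) and the lymphatic factor Prox1 (3.33 against 104 CPM) were the 2 called lower than in other endothelial cells. In all, 6 of 18 were higher there (median 0.57), where 13.5% of all genes were higher and 13.2% lower. Against mural cells 10 of 17 were higher and 1 lower (median 3.04, against 6.45% and 7.74% of all genes). Among cells of the stricter selection 2 of 18 were higher and 2 lower than in other endothelial cells (18.8% and 14% of all genes). The ratios of Sox17 and Ets2 there were 0.61 and 0.99, under the size needed for a call. Ets2 had a ratio of 0.92 and Nr2f2 of -0.38 without A0309 and A0312 in turn, and Fli1 had 0.53 after thinning.

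In the Notch pathway, the receptor Notch4 had 164 CPM in capillary cells, 65.1 CPM in other endothelial and 14.9 CPM in mural cells. The ligand Dll4 had 174, 184, 158 and 169 CPM in the 4 hashtags, against 56.6 and 2.24 CPM, and Nrarp, a Notch target, had 139 CPM against 35.2 CPM in other endothelial cells. These 3 genes were higher than in other endothelial cells. Notch1 was called in neither comparison, at 195, 160.2 and 167 CPM in capillary, other endothelial and mural cells. Jag1, a Notch ligand of the vessel wall, was lower, at 25.7 CPM in capillary, 57.7 CPM in other endothelial and 196 CPM in mural cells, and so against mural cells was Heyl (5.21 against 222 CPM). The counts were 5 higher and 2 lower of 11 against other endothelial cells (median 0.94, against 13.5% and 13.2% of all genes). They were 5 higher and 3 lower of 12 against mural cells (median 0.73, against 6.45% and 7.74% of all genes). Against other endothelial cells of the stricter selection 3 were higher and 2 lower of 11 (18.8% and 14% of all genes). Notch4 lost its call there (0.41), as it did without A0309 (0.87). Jag1 had a ratio of -0.87 without A0311 and -0.86 without A0312.

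Signals that endothelium sends to the vessel wall and to other cells included Pdgfb, which recruits pericytes. It had 266, 258, 241 and 298 CPM in the 4 hashtags, against 67.3 CPM in other endothelial and 20.8 CPM in mural cells. Pdgfa, another PDGF ligand, was lower than in mural cells, at 23.9 CPM in capillary and 325 CPM in mural cells. Cxcl12, the chemokine that binds CXCR4, had 735, 924, 906 and 781 CPM in the 4 hashtags and 159 CPM in other endothelial cells, and Kitl, the ligand of KIT, had 536 CPM against 257 CPM in other endothelial and 132 CPM in mural cells. Efnb1 (ephrin-B1) had 217 CPM against 43.8 and 59.2 CPM. Of 14 members 6 were higher and 5 lower than in other endothelial cells (median 0.56, against 13.5% and 13.2% of all genes). Of 12 members 6 were higher and 1 lower than in mural cells (median 1.52, against 6.45% and 7.74% of all genes). Under the stricter selection 3 of 14 were higher and 5 lower than in other endothelial cells (18.8% and 14% of all genes). Kitl lost its call there (0.40), as it did without A0309 (0.72) and after thinning (0.89).

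Genes of vessel tone and clotting were split. Ednrb, the endothelin B receptor, had 453, 468, 395 and 632 CPM in the 4 hashtags, against 40.6 CPM in other endothelial and 15.4 CPM in mural cells. Nos3, endothelial nitric oxide synthase, had 46.5 CPM against 18.2 and 0.561 CPM, and S1pr1, the receptor of sphingosine 1-phosphate that tightens junctions, had 633 CPM against 249 and 7.85 CPM. Vwf, the von Willebrand factor stored by larger vessels, was lower than in other endothelial cells, with 128, 63.8, 186 and 111 CPM in capillary cells of the 4 hashtags and 946 CPM in other endothelial cells, and was counted in 18.8% of capillary cells. Ace, the angiotensin-converting enzyme, was also lower, at 56.4 CPM in capillary cells and 180.4 CPM in other endothelial cells. Of 18 members, 5 were higher and 5 lower than in other endothelial cells (median -0.04, against 13.5% and 13.2% of all genes). Against mural cells 10 were higher and 2 lower (median 1.70, against 6.45% and 7.74% of all genes). The stricter selection gave 3 higher and 7 lower than in other endothelial cells (18.8% and 14% of all genes). Nos3 and S1pr1 lost their calls there (0.59 and 0.76) and after thinning (0.38 and 0.70), and Nos3 also without A0309 (0.89).

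Genes of leukocyte traffic in venules were among those lower in the capillary cells. Selp (P-selectin) had 78.8, 48.1, 183 and 59.1 CPM in the 4 hashtags and 619 CPM in other endothelial cells, and Ackr1, the atypical chemokine receptor of venules, had 35.3 CPM against 318 CPM. A0311 was highest for both within the capillary cells. With the stricter selection the log2 ratios were -3.14 for Selp and -3.66 for Ackr1. Cxcl9, a chemokine for T cells induced by interferon-γ, was higher, with 156, 172, 151 and 241 CPM in the 4 hashtags and 31.0 CPM in other endothelial cells. Icam2 (318 against 221 CPM) and Vcam1 (32.0 against 57.7 CPM) were not called in that comparison. Against other endothelial cells 2 of 15 were higher and 5 lower (median -0.16, against 13.5% and 13.2% of all genes). With the stricter selection 1 was higher and 7 lower (18.8% and 14% of all genes). Against mural cells 4 of 13 were higher and 1 lower (6.45% and 7.74% of all genes; median 0.93).

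The MHC class I genes H2-K1, H2-D1 and B2m were higher than in mural cells and were not called against other endothelial cells. H2-K1 had 1422 CPM in capillary, 1318 CPM in other endothelial and 311.3 CPM in mural cells, and B2m had 3575, 2487 and 952 CPM in the same order. The class II genes H2-Aa, H2-Ab1 and H2-Eb1, with Cd74 and their regulator Ciita, were the 5 of 11 members called lower than in other endothelial cells. None was higher (median -0.02), where 13.5% of all genes were higher and 13.2% lower. The ratio of Ciita, with 5.46 CPM in capillary and 53.4 CPM in other endothelial cells, was 0.09 after thinning. Cd74 had 179.8, 909, 147 and 331 CPM in the 4 hashtags, 1679 CPM in other endothelial and 5361 CPM in macrophage cells, and was counted in 5.05% of capillary cells, a lower limit because Cd74, H2-Aa and H2-Ab1 are among the genes whose low values had been set to 0, with 15, 9 and 8 the lowest values left. With the stricter selection its log2 ratio was -3.89, against -2.26 before. Against mural cells 5 of 11 were higher and 0 lower (median 1.11, against 6.45% and 7.74% of all genes).

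Several interferon-induced genes were higher. Rsad2 (viperin) had 117, 245, 145 and 177 CPM in the 4 hashtags, against 17.1 CPM in other endothelial, 13.2 CPM in mural and 20.7 CPM in macrophage cells. Ly6c1, a surface antigen of capillary endothelium, had 2601 CPM against 590.5, 32.5 and 12.6 CPM in the same classes, and 1094 CPM in fibroblast cells. The list had 7 of 14 higher and 0 lower than in other endothelial cells (median 1.08, against 13.5% and 13.2% of all genes). The numbers were the same against mural cells (median 1.47, against 6.45% and 7.74% of all genes). The stricter selection gave 6 higher and 0 lower than in other endothelial cells (18.8% and 14% of all genes). Irf1, an interferon-induced transcription factor, was called in neither comparison, at 165 CPM in capillary, 148 CPM in other endothelial and 159 CPM in mural cells.

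Of the genes of interleukin-6 family reception, Osmr, the oncostatin M receptor, had 165, 108, 143 and 119.5 CPM in the 4 hashtags, against 90.8 CPM in other endothelial, 102 CPM in mural and 137 CPM in fibroblast cells. Its ligand Osm had 1.51 CPM in capillary and 11.4 CPM in macrophage cells. Il6st (gp130), the shared signalling chain, had 405 CPM in capillary, 930.0 CPM in other endothelial and 337 CPM in mural cells, and it and Il6ra were the 2 of 9 called lower than in other endothelial cells, with 0 higher (median -0.10), where 13.5% of all genes were higher and 13.2% lower. Under the stricter selection 3 of 9 were lower (14% of all genes). Against mural cells 0 of 9 were called (median 0.04), where 6.45% of all genes were higher and 7.74% lower, so the counts of so short a list lie near the background. Tgfb1 had 136 CPM in capillary, 147 CPM in other endothelial, 118 CPM in mural and 227 CPM in macrophage cells and was called in neither comparison. Of the 19 genes of TGF-β and BMP signalling 1 was higher and 3 lower than in other endothelial cells (median 0.32), near the 13.5% and 13.2% of all genes. The lower ones included Tgfb2 (3.70 against 23.5 CPM) and Tgfb3 (2.51 against 22.4 CPM). Against mural cells 5 were higher and 4 lower (median 0.34, against 6.45% and 7.74% of all genes). The log2 ratios of Tgfb2 and Tgfb3 changed sign with the stricter selection, to 2.30 and 1.82. Clec4e was counted in 3 of the 950 capillary cells.

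Genes of insulin and IGF signalling and of glycolysis were counted in the same way. Of 7 insulin and IGF genes 2 were higher and 4 lower than in other endothelial cells (median -1, against 13.5% and 13.2% of all genes). Of 8 genes 1 was higher and 3 lower than in mural cells (median -0.48, against 6.45% and 7.74% of all genes). Insr had 37.2 CPM in capillary and 99.3 CPM in other endothelial cells, and Igfbp3, a binding protein for IGFs, had 73.8 CPM (126, 43.6, 55.7 and 71.9 CPM by hashtag) against 12.8 CPM. The ratio of Insr was -0.89 without A0312. With the stricter selection 2 of 7 genes were higher and 2 lower (median 0.364, against 18.8% and 14% of all genes). Of 14 glycolysis and hypoxia genes, 1 was higher and 2 lower than in other endothelial cells (median -0.25, against 13.5% and 13.2% of all genes). Against mural cells 1 was higher and 1 lower (median 0.15, against 6.45% and 7.74% of all genes). These counts lie near the shares over all genes. The 2 lower than in other endothelial cells were Hk2 (2.32 against 10.7 CPM) and Pkm (258 against 529.6 CPM). Their ratios were 0.024 and 0.12 after thinning, 1.60 and -0.30 with the stricter selection, and -0.28 and -0.53 without A0309. Gapdh, a glycolytic enzyme, had 599.9 CPM in capillary, 870.2 CPM in other endothelial and 500.0 CPM in mural cells.

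The 15 genes with the largest ratios over other endothelial cells included the transcription factor genes Irx3 and Tbx3. Irx3 had 40.6 CPM in capillary cells (34.5 to 49.1 CPM over hashtags) and no count in other endothelial cells. It was 12.7-fold higher against a chosen floor of 3 counts over the 52 cells, and the lower limit of its interval was 10.3-fold. Tbx3 had 25.4 CPM in capillary cells, no count in other endothelial cells and 30.3 CPM in mural cells. Rgs4, a pericyte gene, had 22.2 CPM in capillary and 1019 CPM in mural cells. At the opposite end, Gpm6a and Prox1 had 2.39 and 3.33 CPM in capillary cells and 85.4 and 104 CPM in other endothelial cells, where 9 and 8 cells counted them. Tbx1 and Ackr2, known from lymphatic endothelium, were with them, at 0.502 and 0.628 CPM in capillary cells and 34.2 and 25.6 CPM in other endothelial cells. Once lymphatic cells were left out, in the stricter selection, the log2 ratio was 0 for Tbx1 and 0.43 for Ackr2. For Gpm6a and Prox1 it was still -5.18 and -2.73 there.

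Levels in the capillary cells varied little between hashtags for most genes. Of 3823 genes at 50 CPM or more, 3732 (97.6%) had a highest hashtag under 2 times the lowest, and the median of the highest over the lowest was 1.25. It was over 5 for 11 genes. These included Ccl21a and Ccl21b, chemokines of lymphatic endothelium, with counts left in 7 cells each and in none with A0309. Low values of both had been removed before deposit, and the lowest values left were 25 and 16. Lower counts could not be seen, so absence of these RNAs with A0309 was not shown. The 11 genes also included the class II genes Cd74, H2-Aa and H2-Ab1, which were highest in A0310, as were the summed macrophage markers.

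The immediate early and heat-shock genes shared an order of hashtags. Most of them are induced within minutes of a stimulus, cell isolation included. Of 15 genes, 13 were highest in A0310 and 13 lowest in A0309, while over all 11644 genes at 5 CPM or more 27.3% were highest in A0310 and 23.5% lowest in A0309. Fos had 2295, 4085, 2743 and 2811 CPM and Egr1 1077, 1803, 1249.8 and 1346 CPM in the 4 hashtags. Their sum over the list was 8681, 14832.5, 10254 and 10760.5 CPM with A0309, A0310, A0311 and A0312. In mural cells 4 of the 15 were highest in A0310 and 10 in A0312, and 10 were lowest in A0309. Macrophage markers in capillary cells also had their highest sum with A0310 (1184 CPM), but their lowest with A0311 (577 CPM), against 663 CPM with A0309 and 897 CPM with A0312. Their part in the order of the immediate early and heat-shock genes was not tested. None of the 15 was called against other endothelial cells (median -0.11), where 13.5% of all genes were higher and 13.2% lower. Against mural cells 3 were lower and 0 higher (median -0.85), where 7.74% of all genes were lower and 6.45% higher.

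States within the capillary cells were read from gene programs after thinning each cell to 10000 counts, which left 691 cells and left out 259 (plot of the share of cells with each program). A cell was counted when at least 2 genes of a program were detected, which marks a range and not a type. Arterial genes (such as Gja4, Sox17, Sema3g and Dll4) were present in 76.7% of capillary cells (73.4% to 79.8%; 75.6% to 78.7% over hashtags), 40% (24.9% to 56.7%) of other endothelial, 36% of mural and 0.737% of macrophage cells. Venous genes (such as Nr2f2, Vwf and Selp) were present in 39.8% (36.1% to 43.6%) of capillary, 62.5% (45.8% to 77.3%) of other endothelial, 30.5% of mural and 0.955% of macrophage cells. The shares in capillary cells were above the macrophage background in both programs, and no difference between the classes was tested. In levels over other endothelial cells, 4 of 10 arterial genes were higher and 0 lower (median log2 ratio 0.73, against 13.5% and 13.2% of all genes). With the stricter selection 2 were higher and 3 lower (median -0.22, against 18.8% and 14%). Of 8 venous genes 0 were higher and 6 lower (median -2.01), and 0 and 7 with the stricter selection. The 2 programs met in 196 cells, which was 37.0% of cells with the arterial and 71.3% of cells with the venous program. Lymphatic genes were present in 8 capillary cells (1.16%) and in 17.5% of other endothelial cells.

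**Figure D4:**
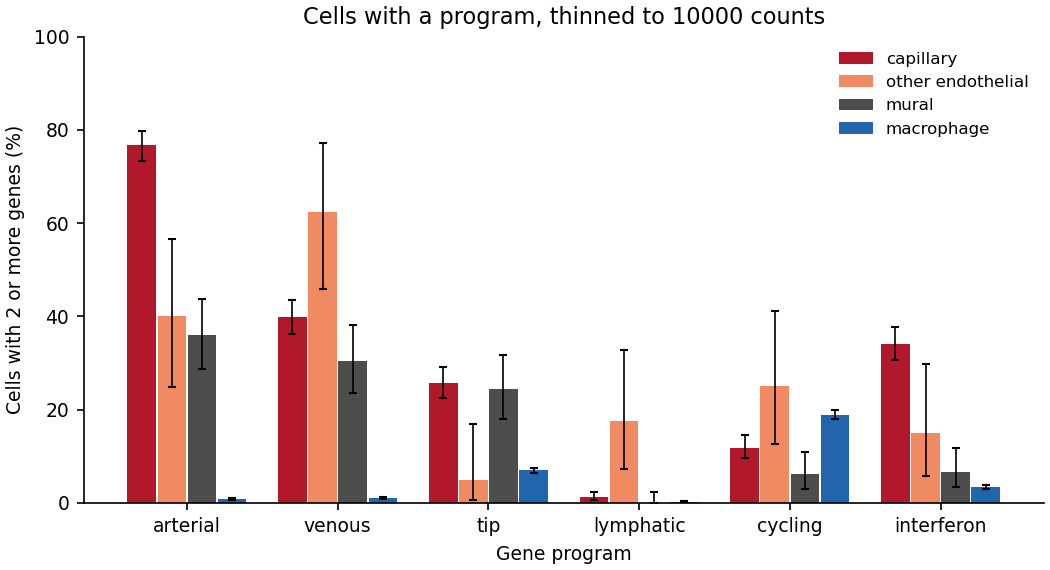
Percentage of cells with at least 2 genes of a program after thinning to 10000 counts, with exact 95% binomial intervals, in capillary, other endothelial, mural and macrophage cells. The capillary shares are the highest of the classes drawn for the arterial (76.7%), interferon (34.2%) and tip (25.6%) programs, the last close to mural cells (24.4%).

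Tip genes, which mark the leading cells of a sprout (Apln, Esm1, Angpt2, Pgf, Cxcr4, Nid2 and Adm), were present in 25.6% of capillary cells (22.4% to 29.0%; 20.5% to 28.2% over hashtags), 5% of other endothelial, 24.4% of mural and 6.96% of macrophage cells. The 177 capillary cells with the program had a median of 19059 counts, and the 332 with none of its genes had 14651.5. Of 7899 genes at 20 CPM or more, 82 (1.04%) were higher and 83 (1.05%) lower in the cells with the program, both pooled and within each hashtag that had enough cells. Prnd, the prion-like protein doppel, had 315.3 CPM in cells with the program and 2.10 CPM in cells without, with log2 ratios of 5.88 to 7.93 over hashtags. Prn, whose annotation overlaps that of Prnd, was higher with it (167 against 1.40 CPM), and how far the 2 genes share reads was not tested. Mest, an imprinted gene of the hydrolase family, had 399.6 against 26.1 CPM, and Kit, the receptor of stem cell factor, had 164 against 17.3 CPM. Prdm1, a transcriptional repressor, had 46.9 against 2.28 CPM. Each of these was higher in all 4 hashtags (plot of genes outside the tip program).

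The genes lower with the tip program included the arterial connexin Gja5, with 1.13 CPM in cells with the program and 52.3 CPM in cells without. Edn1 (endothelin-1) had 6.57 against 66.4 CPM, Vegfc 0.227 against 33.8 CPM, Il6 10.7 against 99.97 CPM and Slc6a6, the taurine transporter, 54.4 against 531 CPM. All 5 were lower in every hashtag. Macrophage markers summed to 332 CPM in cells with the program and 697 CPM in cells without, and mural markers to 205 and 299 CPM. Ccnb2, a mitotic cyclin, was higher with the program (49.4 against 2.45 CPM), and 31 of the 177 cells also had the cycling program, which was 17.5% of them and 37.8% of the cycling cells.

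**Figure D5:**
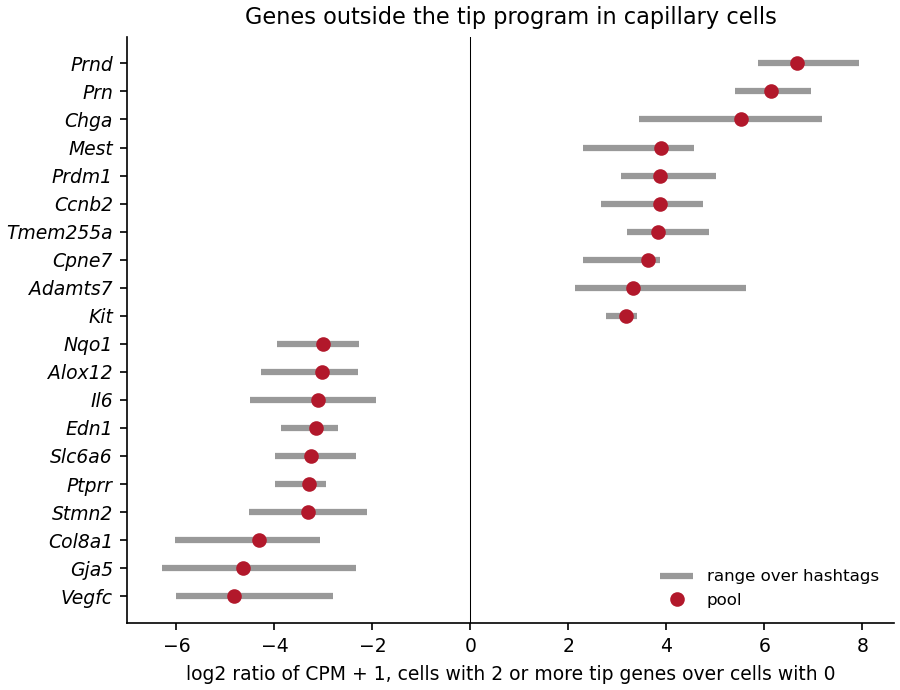
Log2 ratio of CPM plus 1 in capillary cells with at least 2 tip genes over those with 0, for the 10 genes outside the program with the largest ratio in each direction. Red points are the pool and grey lines the range over hashtags. The lines stay on 1 side of 0 for all 20 genes, from Prnd at 6.67 to Vegfc at -4.83.

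The venous program split 275 cells with at least 2 genes from 145 with 0. Of 7926 genes 68 (0.858%) were higher and 5 (0.0631%) lower. Clu (clusterin) had 121 CPM in cells with the program and 2.46 CPM in cells without, and Ctnnal1, an α-catenin relative, had 59.4 against 1.05 CPM. Vegfc had 35.2 against 1.40 CPM. Tagln, a smooth muscle gene, was also higher (134 against 4.21 CPM), and the mural markers summed to 405 CPM with the program and 101 CPM without, 7 of the 8 being higher. Lyve1 had 139.9 against 0.351 CPM, from 10 cells. The lower genes included P2ry6, a receptor of extracellular nucleotides (4.90 against 33.0 CPM), and the potassium channel gene Kcnj2 (9.80 against 38.3 CPM). Macrophage markers summed to 509 CPM in cells with the program and 1267 CPM in cells without.

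Cycling genes were present in 11.9% of capillary cells (9.55% to 14.5%; 8.29% to 14.8% over hashtags), 25% of other endothelial, 6.10% of mural and 18.9% of macrophage cells. The 82 cells with the program had a median of 22680.5 counts, and the 419 without had 15887. Of 8045 genes, 267 (3.32%) were higher and 105 (1.31%) lower, with only 2 hashtags holding 20 cells of both sets. Further mitotic genes were higher, such as Prc1 (188 against 3.14 CPM) and Cenpe (134 against 2.51 CPM), both needed for chromosome segregation or cytokinesis. Macrophage markers summed to 2204 CPM in cells with the program and 559 CPM without, all 8 being higher. In levels over other endothelial cells, 3 of 10 cycling genes were higher and 3 lower (median log2 ratio -0.23, against 13.5% and 13.2% of all genes). With the stricter selection 8 were higher and 0 lower (median 2.13, against 18.8% and 14% of all genes). The part of macrophage RNA in the share of capillary cells with cycling genes was not tested.

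Interferon genes were present in 34.2% of capillary cells (30.6% to 37.8%), 15% of other endothelial, 6.71% of mural and 3.44% of macrophage cells. The share was 21.5% for A0309, 36.9% for A0310, 35.1% for A0311 and 40.5% for A0312 cells, lowest for A0309, and the hashtags were not tested against each other. Of 7861 genes only 18 (0.229%) were higher and 24 (0.305%) lower in the 236 cells with the program than in the 206 without. Other antiviral genes were among the higher, with Ifit3b at 43.3 against 4.39 CPM, Mx2 at 21.8 against 1.81 CPM and Oasl2 at 55.7 against 12.7 CPM. The lower ones included the macrophage genes Gpnmb (18.5 against 297 CPM) and Lgals3 (169 against 1693 CPM). Macrophage markers summed to 501 CPM in cells with the program and 1288 CPM without.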

How the data were processed

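The deposited table holds whole-number counts per gene and cell, with low values of 68 genes set to 0 (the lowest value left is 5 to 68). The build was GRCm38 and the tools were Bowtie2 2.4.2, cutadapt 3.4, R 4.1.2 and R 3.6.3, as listed in the submitters' processing notes. No source used here says whether reads or molecules were counted. Per the file headers, the authors named each cell by barcode and hashtag, and 367 cells named as doublets were left out, with no further doublet caller run. The hashtag table, counts of tags per barcode as the authors deposited it, served to check the names. With at least 10 tag counts and at least 75% of them from 1 hashtag, 11436 cells were assigned, each to the hashtag in its name.

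From the deposited counts, CPM was computed here as the sum over the cells of a class scaled to 1000000, and ratios used a pseudocount of 1 CPM and genes at 5 CPM or more in either class. Programs were compared among cells thinned to 10000 counts (seed 1), on unthinned sums and genes at 20 CPM or more. Intervals are exact Poisson or Clopper-Pearson 95% intervals for counting error, since counts after PCR may not be independent molecules. There is 1 pool and no replicate, so no p-value was computed. Scripts were tested on simulated data (Python 3.11.15, NumPy 2.4.6, SciPy 1.17.1, pandas 2.3.3).

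The cells, gene lists and comparisons were chosen with earlier results of these data known. Named genes were the rule's genes and markers; from each list up to 4 called members with the largest ratios and the member of highest CPM among those not called; Osmr, Osm, Tgfb1 and Clec4e; the 15 largest ratios in each direction over all genes; and 10 genes in each direction per program. Further list members were named for their role after their values were seen. Alternatives changed the hashtag rule, cell quality limits, depth, the rule's gene numbers, pseudocount, low filter, centring, averaging, the deepest 5% of cells and each hashtag. Gene symbols matched the annotation for 28967 of 30084 names (96.3%). Some genes that the naming rule or the lists hold are not reported here by name.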

Additional observations from a re-analysis of the deposited data

Results flagged for a closer look

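Of the 367 cells that the authors named as doublets and that entered no comparison, 7 met the rest of the capillary rule, which is 1.91% (exact interval 0.770% to 3.89%). They were singled out because they lie outside the data that were compared. Their median was 12289 counts, against 31877 counts over all cells named as doublets and 13397.5 counts over the 950 capillary cells.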

How the results depend on the processing

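No paired analysis was possible because the 2 libraries come from 1 pool, no result comes from a test, and no replicate numbers link cells. The share of capillary cells (6.18%) was 6.92% with the strict hashtag rule, 4.96% after thinning, 4.94% with the stricter and 6.71% with the looser gene numbers, and 5.95% to 6.61% (665 to 783 cells) with 1 hashtag left out, the highest being without A0310. Against other endothelial cells the 1714 higher genes became 3275 with no low filter, 906 at 20 CPM and 1958 to 2163 with 1 hashtag left out, and the 1673 lower ones 1107 with a pseudocount of 5 CPM, 954 at 20 CPM and 1709 to 1865. Against mural cells the numbers with 1 hashtag left out were 953 to 968 higher and 1112 to 1146 lower, where a call needed 1 hashtag fewer. With the stricter macrophage limit and without lymphatic cells, an alternative chosen after seeing the data, 2338 and 1740 genes were higher and lower than in other endothelial cells, and 893 and 1029 than in mural cells. Program shares without thinning were 80.8% (arterial) and 38.9% (interferon). With at least 3 genes they were 53.5% (arterial), 19.1% (venous), 14.3% (tip), 6.95% (cycling) and 15.6% (interferon).

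Of 5505 values of 367 gene ratios under 15 alternatives, 3963 moved by less than counting error and 1505 moved further. The alternatives of the low filter could not move a ratio, so all 367 were unchanged in each. A change of sign was counted only for genes called in the main setting, and those not called were sorted by size alone. Of the called genes, 37 values changed sign, all against other endothelial cells. With the stricter macrophage limit these were Ackr2 (0.43), C1qb (1.07), Chil3, Clec4e, Slc13a3 and Slc45a3 (0.19 each), Hk2 (1.60), Lpl (0.81), Lyve1 (0.83), Plin2 (0.52), Sema3g (-0.0083), Slc27a4 (0.96), Tgfb2 (2.30) and Tgfb3 (1.82). After thinning they were C1qb (1.06), Ciita (0.088), Clec4e and Gm35853 (0.19 each), Csf3 (1.10), Gpnmb (5.80), Hk2 (0.024), Lpl (1.13), Pkm (0.12), Plin2 (0.92), Slc13a3 (0.36), Slc27a1 (0.16) and Slc27a4 (0.97). With 1 hashtag left out the ratios spanned -4.65 to 0.21 for Clec4e, -1.46 to 0.15 for Plin2 and -4.44 to 0.85 for Slc13a3, positive without A0309, and -6.10 to 0.24 for Chil3 and -3.66 to 0.86 for Csf3, positive without A0312. With a mean over cells they were Nid2 (-0.16) and Prn (-0.35), and without the deepest 5% of cells Ccl7 (0.19), Clec4e (0.20) and Slc13a3 (0.46). The cause was not tested. The 52 other endothelial cells limit every ratio over them.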
